A study of Homo sapiens with 14 samples.

Results

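The actin cytoskeleton and contractility genes are 54 human genes taken by name from a list, and all 54 were found, each in 1 row, among the 56479 rows of the deposited count table. They hold 3 actins, 8 Arp2/3 subunits, 8 genes of filament turnover and monomer binding, 5 cross-linkers, 3 membrane linkers, 8 tropomyosins and calponin-family genes, 8 myosin II genes, 6 focal adhesion and stress fibre genes and the 5 genes RHOA, RHOB, RHOC, ROCK1 and ROCK2. The study sequenced RNA from liver cancer lines squeezed in different ways: HepG2, labelled a hepatoblastoma line, and Hep3B, labelled a hepatocellular carcinoma line, both with wild-type genotype in the labels. On plastic dishes, HepG2 cells were kept for 5 days in isotonic medium or in medium with 4% PEG (polyethylene glycol, a solute that draws water out of cells). On transwells (porous membrane inserts), HepG2 cells were left uncompressed or had a weight laid on them, and Hep3B cells were left uncompressed, had a weight laid on them or were kept in 3% PEG. The sources used here do not give how heavy the weight was or how long the transwell cultures lasted. Each of these 7 groups has 2 libraries.

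Actin monomers assemble into filaments that carry cell shape, protrusion and, with non-muscle myosin II, tension. The Arp2/3 complex starts branched filaments, cofilins and gelsolin take filaments apart, cross-linkers and tropomyosins organise them, ezrin, radixin and moesin tie them to the plasma membrane, and focal adhesion proteins tie them to integrins. RhoA and its kinases ROCK1 and ROCK2 raise myosin light chain phosphorylation, and in hepatocytes this system also shapes the bile canaliculus and its villin-bearing microvilli.

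The 14 libraries held 21161950 to 35394448 counts each, and the 54 genes took 1.144% to 2.094% of them. RB1, which marks the lines, lay at 100.7 to 146.7 CPM, the normalised read count per library total after TMM scaling, in every HepG2 library and at 2.631 to 4.943 CPM in every Hep3B library, on the side its label gives. The dish libraries stood apart in their spread: the coefficient of variation between the 2 libraries of a group was 0.318 and 0.289 for the dish groups and 0.0458 to 0.0704 for the transwell groups. Dishes and transwells were therefore fitted separately with edgeR's quasi-likelihood test, and a gene is said to have risen or fallen where its p, adjusted by Benjamini and Hochberg over all genes tested in that fit, was under 0.05. The 54 genes passed the low-count filter in both fits, but some only through 1 group or line: LIMCH1 and MSN on dishes through their 4% PEG libraries alone, ACTA2 on transwells through HepG2 alone and LIMCH1 there through Hep3B alone. For such genes a difference from the group below the filter's cutoff, which was 0.347 CPM on dishes and 0.401 CPM on transwells, is a description. Counts without them are given beside the main ones for the lines, the weight in HepG2 and 4% PEG. Leaving out ACTA2 changed no count of rises or falls in the comparisons within Hep3B. Counts for the difference in the weight's effect, and of genes shared between comparisons, include such genes. The labels call the libraries of the dish groups biological replicates without describing separate cultures, so p measures the spread between libraries, which may be technical. Levels are CPM unless a sentence says that they are per kilobase of exon, a fold change is on the log2 scale with its standard error, and in bulk RNA fewer cells of a type and less RNA per cell cannot be told apart.

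SRF is the transcription factor that, with its actin-binding cofactors MRTFA and MRTFB, reads the pool of free actin, and it binds the CArG box. The stretch of 250 bases before the start site held a CArG box in 7 of the 48 genes that have an entry in the promoter table (14.6%), against 394 of all 27305 genes of that table (1.44%) and 275 of the 18863 that the count table also names (1.46%); the box pattern reads the same on both strands. The table can hold several RefSeq start sites for a gene, and a gene was counted where any of them had a box; by start site the box was in 7 of 86 for these genes (8.14%) and in 407 of all 35116 (1.16%). TAGLN, VIL1, ARPC1B, MYL9, ACTB and PFN2 had no entry. The 7 stretches are shown because they carry this shared feature; each runs 5′ to 3′ along the gene's strand, from RefSeq on GRCh38.p14, with the box in capitals. They lie before a RefSeq start site that need not be the gene's outermost one: MYLK's start site lies 263783 bases inside the annotated gene, ACTG1's 11048, ROCK2's 2893, ACTN1's 1874 and TPM4's 517, while those of CNN2 and FLNA lie 27 and 4 bases inside.
ACTG1, chr17:81512859-81512918, minus strand: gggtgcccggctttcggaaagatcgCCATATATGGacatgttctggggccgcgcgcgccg
ACTN1, chr14:68977703-68977762, minus strand: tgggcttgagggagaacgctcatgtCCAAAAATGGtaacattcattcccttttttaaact
CNN2, chr19:1026494-1026553, plus strand: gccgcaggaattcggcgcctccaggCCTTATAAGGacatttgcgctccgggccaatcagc
FLNA, chrX:154374694-154374753, minus strand: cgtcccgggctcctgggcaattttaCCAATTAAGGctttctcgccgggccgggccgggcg
MYLK, chr3:123620608-123620667, minus strand: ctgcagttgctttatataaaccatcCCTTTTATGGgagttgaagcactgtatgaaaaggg
ROCK2, chr2:11345476-11345535, minus strand: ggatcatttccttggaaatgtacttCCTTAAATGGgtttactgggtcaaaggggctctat
TPM4, chr19:16067340-16067399, plus strand: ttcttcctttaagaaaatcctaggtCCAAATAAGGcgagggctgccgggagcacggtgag
The 7 genes did not move as 1 block. Under the weight, ACTG1, ACTN1, FLNA and TPM4 rose in HepG2 and ACTN1, FLNA, CNN2 and ROCK2 rose in Hep3B, with MYLK falling in both lines (a fall that leaving out 1 library could end in each). Leaving out 1 library could also end the Hep3B rises of FLNA, CNN2 and ROCK2. In 4% PEG, FLNA and MYLK rose and the other 5 did not pass the test; in 3% PEG, FLNA and ROCK2 rose and the other 5 fell. A box in these letters is a description of the sequence and says nothing of SRF binding there.

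The lines were first compared without compression, on transwells, since every response below starts from these levels. Hep3B and HepG2 differed in the shares that members of several actin gene families took of their family's level. Of the 54 genes, 36 were higher in Hep3B (66.67%) and 10 were lower (18.52%), against 38.1% and 36.6% of all 18082 genes tested, and the median log2 difference was 0.36 over the 54 genes and 0.03 over all genes. At a difference of at least 1.5-fold the counts were 22 higher and 7 lower, or 40.74% and 12.96%, against 28.8% and 27.7% of all genes. Without ACTA2, MSN and LIMCH1, each under the filter's cutoff in 1 of the groups, 34 of 51 genes were higher (66.7%) and 9 lower (17.6%), against 37.3% and 37.4% of the 14229 genes above the cutoff in both groups.

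Moesin and LIMCH1 were near 0 in HepG2 and well measured in Hep3B. MSN, at chrX:65588377-65741931 (GRCh38, GENCODE 29), which links filaments to the plasma membrane, stood at 0.268 and 0.29 CPM in the uncompressed HepG2 libraries and at 56.5 and 55.2 CPM in Hep3B, a log2 difference of 7.62 ± 0.14. Per kilobase of exon, moesin made up 0.0856% and 0.0967% of the summed ezrin, radixin and moesin level in the uncompressed HepG2 libraries and 9.52% and 9.2% in Hep3B. Ezrin, the linker of microvilli, was the most abundant of these linkers per kilobase in both lines, at 58.5% and 58.5% of the sum in HepG2 and 66.6% and 67.4% in Hep3B. TAGLN2 (transgelin 2, a calponin-family actin binder) lay at 5.71 and 4.72 CPM in HepG2 and 189 and 199.8 CPM in Hep3B, a log2 difference of 5.22 ± 0.08 (adjusted p = 1.85e-30). LIMCH1, at chr4:41359607-41700044, a stress fibre protein that activates myosin II, had 2 counts in the uncompressed HepG2 libraries together and 320 in the Hep3B ones, a normalized ratio of 130.5 with an exact 95% counting interval of 35.8 to 1082. For these 3 genes the Hep3B libraries lay far above every HepG2 library.

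Other genes went the opposite way. GSN encodes gelsolin, which severs and caps filaments, and lay at 317 and 319 CPM in uncompressed HepG2 and 24.6 and 23.4 CPM in Hep3B, 13.3-fold lower (log2 difference -3.73 ± 0.06). ACTA2, the smooth muscle α-actin gene at chr10:88935074-88991339 (GRCh38), had 492 to 914 counts in each of the 8 HepG2 libraries and 0 counts in each of the 6 Hep3B libraries. Its uncompressed Hep3B level was therefore at least 551-fold lower than in HepG2, taking 3 counts over the group as the floor. Its neighbours on chromosome 10 shared this pattern in part: STAMBPL1, which overlaps its span, had 358 counts over the HepG2 libraries and 0 in Hep3B, and FAS had 3586 and 1, while LIPA farther out had at least 1074 counts in every Hep3B library. Exons of ACTA2 overlap those of FAS and of ACTA2-AS1 on the opposite strand (12.8% and 17.3% of ACTA2's exon bases), and whether counting used strand is not stated.

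The contractile genes differed in their proportions. Per kilobase of exon, MYH9 (non-muscle myosin heavy chain IIA) made up 61% and 60.3% of the summed MYH9, MYH10 and MYH14 level in uncompressed HepG2 and 11.8% and 12.3% in Hep3B, where MYH10 (IIB) made up 78.3% and 78.6%. In CPM, MYH9 stood at 539 and 569 in HepG2 and 85.9 and 99.1 in Hep3B (5.99-fold lower, log2 difference -2.58 ± 0.09), and MYH14 (IIC) at 16.1 and 17.6 in HepG2 and 82.5 and 83.9 in Hep3B (4.93-fold higher). The regulatory light chain MYL9 was 4.58-fold higher in Hep3B, at 8.07 and 8.07 CPM in HepG2 and 37 and 36.9 CPM in Hep3B. Of the kinases that act on these chains, ROCK2 was 5.13-fold lower in Hep3B (679 and 689 against 128 and 138 CPM) and made up 52.9% and 52.7% of the summed ROCK1 and ROCK2 level per kilobase there, against 87.4% and 87% in HepG2. RHOB, an endosomal GTPase, was 3.19-fold lower in Hep3B, and RHOA did not pass the test (log2 difference -0.08 ± 0.05).

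Among the abundant genes, cytoplasmic β-actin was 2.14-fold higher in Hep3B, with ACTB at 2038 and 2008 CPM in HepG2 and 4208 and 4436 CPM in Hep3B, while γ-actin lay at 1881 and 1888 CPM in HepG2 and 1962 and 1960.5 CPM in Hep3B (ACTG1 log2 difference 0.06 ± 0.05, no call). ACTB thus took 47.5% and 47.1% of the summed actin level per kilobase in HepG2 and 64.6% and 65.8% in Hep3B. Of the 8 Arp2/3 subunits 7 were higher in Hep3B, led by ARPC4 (3.09-fold) and ARPC5 (2.38-fold), and the 6 focal adhesion and stress fibre genes were all higher, among them zyxin (ZYX, 2.35-fold). The tropomyosin TPM1, which coats filaments, was 3.14-fold higher, TPM3 2.13-fold, and the capping protein CAPG 5.18-fold. The neuronal-type profilin PFN2 and the muscle-type cofilin CFL2 were 2.99-fold and 2.2-fold lower, with PFN1 and CFL1 higher. Per kilobase, PFN2 made up 12.4% and 12.6% of the profilins in HepG2 and 3.14% and 2.93% in Hep3B, and CFL1 made up 38.3% and 39.5% and 59% and 58.9% of the summed CFL1, CFL2 and DSTN level. ACTN1 (α-actinin 1, a cross-linker), CNN3 (calponin 3) and MYLK (myosin light chain kinase) were lower in Hep3B by less than 1.5-fold, MYLK with an adjusted p of 0.0439 that was 0.121, 0.131 and 0.28 without uncompressed HepG2 replicate 1, HepG2 replicate 2 and Hep3B replicate 1. Summed smooth muscle markers, mostly SMTN, with LMOD1 at 0 in both groups, were 16.73 and 17.71 CPM in HepG2 and 56.87 and 56.21 CPM in Hep3B. Of the 4 smooth muscle markers tested, 1 was higher in Hep3B and 1 lower. The 8 liver markers summed to 77330 and 77280 CPM in HepG2 and 33380 and 33300 CPM in Hep3B, with 1 higher and 7 lower in Hep3B. The 6 blood cell markers, nearly all LYZ, with CD3E at 0 in both groups and PTPRC at 0 in HepG2, summed to 4882 and 4967 CPM against 16.77 and 16.91 CPM. Of the 4 blood cell markers tested, 1 was higher in Hep3B and 3 lower. The 4 endothelial markers, with KDR at 0 in both groups and CDH5 at 0 in Hep3B, summed to 7.004 and 7.074 CPM against 0.6638 and 0.6666 CPM. The part of these markers in the differences was not tested. With libraries scaled by total counts alone, the median difference of all genes became 0.37 instead of 0.03, 44 of the 54 genes were higher and 7 lower (against 49.7% and 26.4% of all genes), and CNN3, MYLK and RHOA turned positive at log2 0.11, 0.17 and 0.25.

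**Figure D1:**
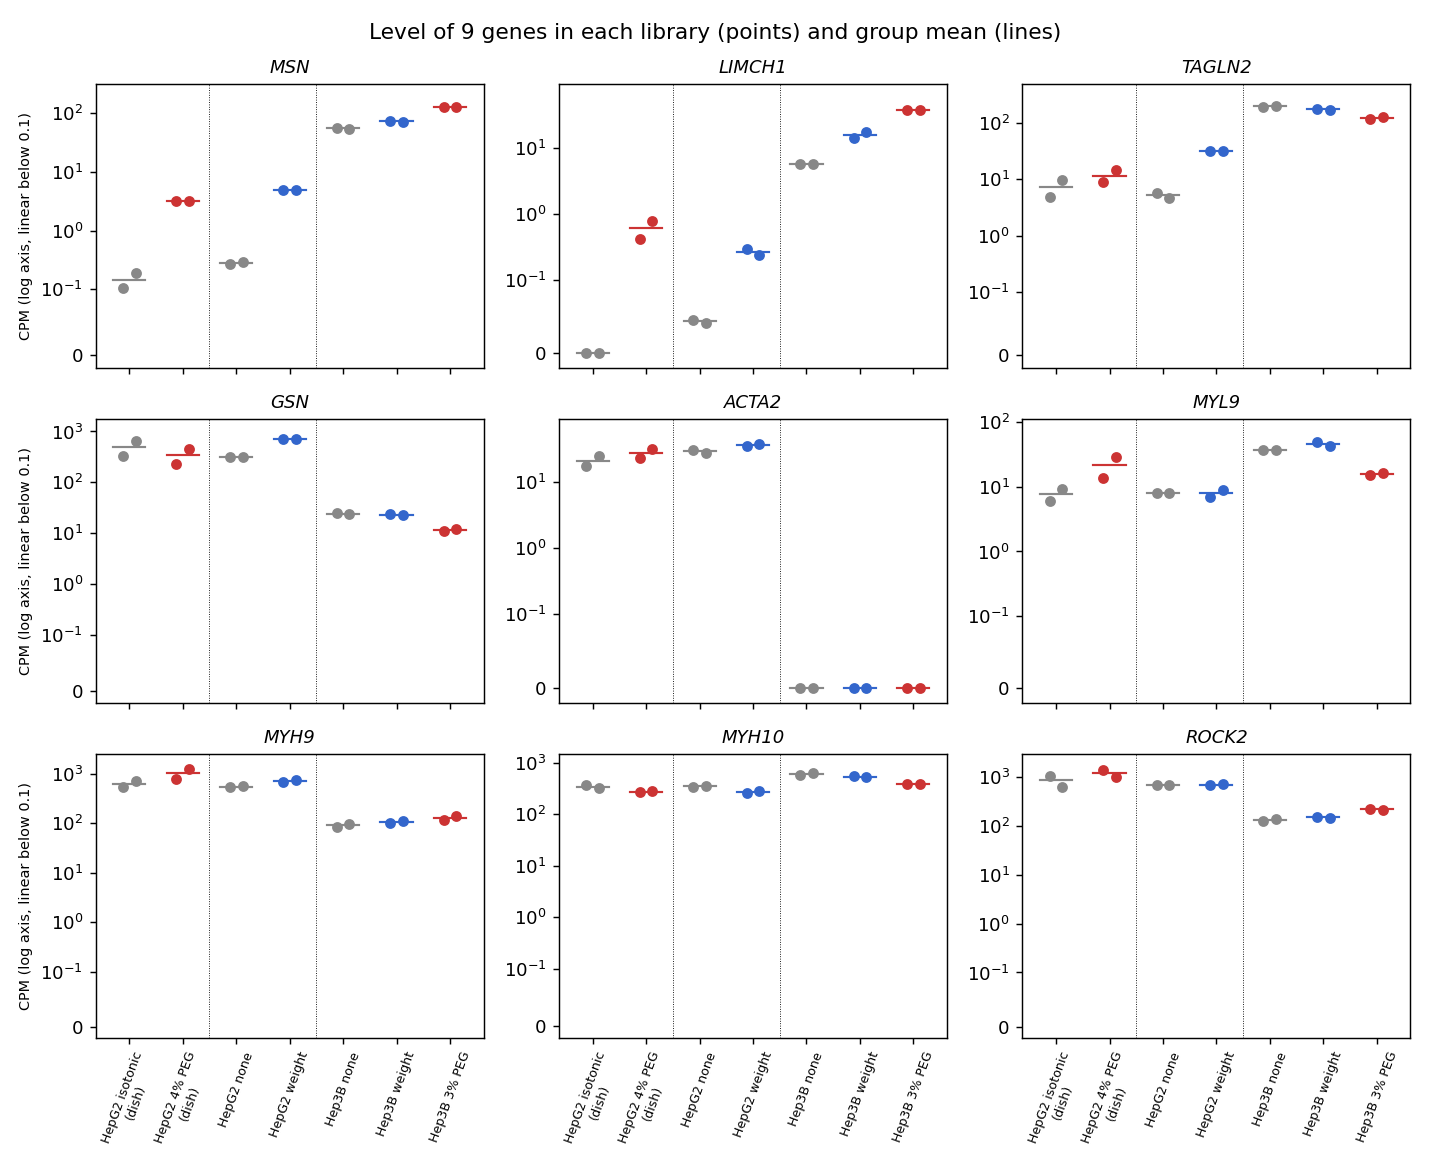
Levels of 9 genes in CPM (vertical log axis, linear below 0.1) in each of the 14 libraries (points), with group means (lines), for the 7 groups on the horizontal axis; grey is the control of a surface and line, blue the weight and red PEG. MSN, LIMCH1 and TAGLN2 are far higher in Hep3B than in HepG2, GSN, MYH9 and ROCK2 are far higher in HepG2, and ACTA2 is at 0 in all 6 Hep3B libraries.

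The weight on HepG2 raised a broad set of these genes. Of the 54, 24 rose (44.44%) and 6 fell (11.11%), against 17.9% and 21.4% of all genes tested, and 9 rose by at least 1.5-fold (16.67%, against 10% of all genes) while none of the 6 fell that far, against 5.64% of all genes. The median log2 change was 0.12 over the 54 genes and 0 over all genes. Without MSN and LIMCH1, under the filter's cutoff before the weight, 22 of 52 genes rose (42.3%) and 6 fell (11.5%), against 18.5% and 24.8% of the genes above the cutoff in both groups. The rises included moesin, transgelin 2, gelsolin and filamin A, and took 4 of 5 cross-linkers, 5 of 8 tropomyosin and calponin-family genes and 4 of 8 myosin II genes. The treated libraries are compared with the same uncompressed HepG2 libraries as in the comparison of the lines.

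Moesin and transgelin 2 were both low in uncompressed HepG2. MSN went from 0.268 and 0.29 CPM to 4.85 and 4.95 CPM, 17.3-fold (log2 4.11 ± 0.23). TAGLN2 went from 5.71 and 4.72 CPM to 31.9 and 30.9 CPM, 6.04-fold (log2 2.59 ± 0.09, adjusted p = 8.6e-20). Both weighted libraries were above both uncompressed ones by a wide margin and below every Hep3B library. LIMCH1 moved from 2 to 12 counts over the group, a normalized ratio of 6.14 with an exact 95% counting interval of 1.37 to 56.5. Gelsolin, abundant in HepG2 already, went from 317 and 319 CPM to 719 and 714 CPM (2.25-fold, log2 1.17 ± 0.05, adjusted p = 5.48e-17).

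Among filament organisers, TAGLN (transgelin, a smooth muscle and stress fibre protein) rose 2.43-fold from 4.33 and 4.51 CPM to 11.7 and 9.76 CPM. The tropomyosins TPM4 and TPM1 rose 1.52-fold and 1.38-fold; TPM2 rose too, but its weighted libraries were far apart, at 11.9 and 6.12 CPM against 2.81 and 1.65 CPM without the weight. The cross-linker FLNA (filamin A) went from 367 and 383 CPM to 650.3 and 629 CPM, a log2 change of 0.77 ± 0.06. PLS3 (plastin 3) and the α-actinins ACTN1 and ACTN4 rose 1.34-fold, 1.21-fold and 1.13-fold, and calponin 3 fell, CNN3 going from 309 and 304 CPM to 238 and 241 CPM. Ezrin rose 1.29-fold; radixin (RDX) did not pass the test at log2 0.04 ± 0.06.

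In the contractile module MYH9 rose and MYH10 fell. MYH9 went from 539 and 569 CPM to 692 and 752 CPM (log2 0.38 ± 0.09, adjusted p = 0.00369) and MYH10 from 331 and 359 CPM to 253 and 281 CPM (log2 -0.37 ± 0.06), so that the MYH9 share of the 3 heavy chains per kilobase was 71.9% and 71.5% under the weight. Of the light chains, MYL12A rose 1.41-fold and MYL6, the essential light chain, 1.24-fold, whereas MYL9 stayed at log2 -0.05 ± 0.13 with overlapping groups, and myosin light chain kinase fell, MYLK at log2 -0.27 ± 0.07. The GTPase RHOC rose 1.94-fold, from 22.4 and 25.2 CPM to 44.6 and 48.1 CPM, and RHOA, RHOB, ROCK1 and ROCK2 did not pass the test. The actins parted: ACTG1 rose from 1881 and 1888 CPM to 2526 and 2428 CPM (log2 0.39 ± 0.05, adjusted p = 2.69e-07), ACTB lay at 2038 and 2008 CPM and 1889 and 1925 CPM with no call, and ACTA2 rose 1.26-fold.

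Monomer-binding genes went both ways, with destrin (DSTN, an actin-depolymerising factor) up 1.21-fold, CFL2 down 1.35-fold and PFN1 (profilin 1) down 1.17-fold. The Arp2/3 complex hardly took part: ARPC2 rose 1.11-fold, ARPC4 fell 1.32-fold and the other 6 subunits did not pass the test. The falls of MYLK and PFN1 lost their call without weighted HepG2 replicate 1 (adjusted p = 0.069 and 0.0553). The rises of TAGLN2, GSN, FLNA, RHOC, TPM4, MYL12A, TAGLN, ACTG1, TPM1, PLS3, EZR and MYH9 kept theirs without each of the 4 libraries in turn. MSN, under the filter's cutoff before the weight, is not counted here. Summed liver markers were 77330 and 77280 CPM without the weight and 64320 and 66820 CPM with it. Within that sum 3 of the 8 markers rose and 4 fell, with log2 changes from -0.66 to 0.37. Smooth muscle markers, with LMOD1 at 0 in all 4 libraries, were 16.73 and 17.71 CPM against 22.4 and 19.15 CPM. Blood cell markers, with PTPRC and CD3E at 0 in all 4, were 4882 and 4967 CPM against 2772 and 2701 CPM, and endothelial markers, with KDR at 0 before the weight, 7.004 and 7.074 CPM against 11.82 and 11.81 CPM. Of the 4 blood cell markers tested, 1 rose and 1 fell. The part of these in the result was not tested.

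In Hep3B the weight went with smaller sets of rises and falls. Of the 54, 13 rose (24.07%) and 9 fell (16.67%), against 7.29% and 8.85% of all genes tested, and 3 rose by at least 1.5-fold, LIMCH1, TAGLN and RHOB (5.556%, against 3.59% of all genes), while none of the 9 fell that far, against 1.05%. The median log2 change was -0.05 over the 54 genes and -0.02 over all genes. The rises took 2 of 6 adhesion and stress fibre genes, 2 of 5 cross-linkers and RHOB and ROCK2 among others, and the falls were scattered over 7 of the 9 role groups.

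LIMCH1 went from 5.55 and 5.65 CPM to 14 and 17.3 CPM (2.79-fold, log2 1.48 ± 0.12, adjusted p = 7.18e-11). TAGLN went from 4.47 and 5.3 CPM to 13.1 and 9.88 CPM (2.35-fold, log2 1.23 ± 0.15, adjusted p = 1.98e-07). Both genes also rose in HepG2 under the weight, and in neither line did their groups overlap. LIMCH1 was under the filter's cutoff in HepG2 with and without the weight, so its rise there is a description. RHOB went from 96.6 and 92.1 CPM to 134 and 173 CPM, a log2 change of 0.70 ± 0.09, and was level in HepG2 at 299.5 and 302 CPM without and 302 and 297 CPM with the weight. Moesin, at 56.5 and 55.2 CPM before, reached 75.3 and 71.4 CPM (1.31-fold), and ACTN1 rose 1.29-fold, FLNA 1.2-fold and paxillin (PXN, a focal adhesion adaptor) 1.27-fold. MYL9 rose 1.22-fold, from 37 and 36.9 CPM to 48.2 and 41.8 CPM, and CNN2, ROCK2, PFN1, PFN2 and MYL12A rose by 1.11-fold to 1.17-fold.

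The falls were small. TPM1 went from 188 and 184 CPM to 151 and 134 CPM (1.31-fold lower, log2 -0.39 ± 0.06) and EZR from 221 and 227 CPM to 191 and 175 CPM (1.22-fold lower). ARPC5, MYLK, ACTN4, LIMA1 (an actin bundler also called EPLIN), TAGLN2, CNN3 and DSTN were 1.12-fold to 1.23-fold lower. ACTB, ACTG1, MYH9 and RHOA did not pass the test, at log2 -0.01 ± 0.05, 0.10 ± 0.05, 0.21 ± 0.09 and -0.01 ± 0.05. These counts leaned on single libraries: with 1 library left out, 5 to 11 genes rose and 3 to 12 fell, with 5 rises without uncompressed replicate 1, 8 rises without weighted replicate 1, and 3 falls without uncompressed or weighted replicate 2. LIMCH1, TAGLN, ACTN1, MSN and RHOB among the rises, and TPM1, ARPC5 and EZR among the falls, kept their call without each library in turn. Summed liver markers were 33380 and 33300 CPM without and 32470 and 32920 CPM with the weight, and of the 8 markers 1 rose and 3 fell.

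The weight's effect itself differed between the lines for 22 of the 54 genes. It was higher in Hep3B than in HepG2 for RHOB, PFN1, CFL2 and CNN2, 4 genes (7.407%), and lower for 18 (33.33%), against 12% and 9.95% of all genes tested, and by at least 1.5-fold it was higher for 1 and lower for 7 (1.852% and 12.96%, against 4.95% and 5.43%). The clearest differences, Hep3B minus HepG2, were TAGLN2 at -2.77 ± 0.11 (adjusted p = 5.12e-18), MSN at -3.72 ± 0.25, GSN at -1.22 ± 0.08, TPM1 at -0.85 ± 0.09 and TPM4 at -0.61 ± 0.08. MSN was under the filter's cutoff in uncompressed HepG2, so its difference is a description. Gelsolin, raised 2.25-fold in HepG2, was at 24.6 and 23.4 CPM without and 23.8 and 22.7 CPM with the weight in Hep3B. A set of 5 genes, DSTN, ACTN4, EZR, TPM1 and TAGLN2, rose in HepG2 and fell in Hep3B, and PFN1 did the reverse; the difference itself passed the test for all 6. A set of 7 genes, ACTN1, FLNA, MSN, TAGLN, MYL12A, PXN and LIMCH1, rose in both lines, and CNN3 and MYLK fell in both. Leaving out 1 library could end the Hep3B calls of DSTN, ACTN4, TAGLN2, PFN1, FLNA, PXN, CNN3 and MYLK, and the HepG2 calls of PFN1 and MYLK. In uncompressed HepG2, MSN and LIMCH1 were under the filter's cutoff, so their rises there are descriptions. The shares that follow include them. Of the 24 genes risen in HepG2, 29.2% thus rose and 20.8% fell in Hep3B, against 19% and 6.62% of all 3235 genes risen in HepG2; of the 6 fallen, 33.3% fell and 16.7% rose, against 20% and 4.92% of all 3863. The effect on ACTG1 was lower in Hep3B (-0.30 ± 0.07), and that on ACTB (0.07 ± 0.07), MYH9 (-0.17 ± 0.13), MYL9 (0.33 ± 0.15) and RHOA (0.07 ± 0.07) was not shown to differ.

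**Figure D2:**
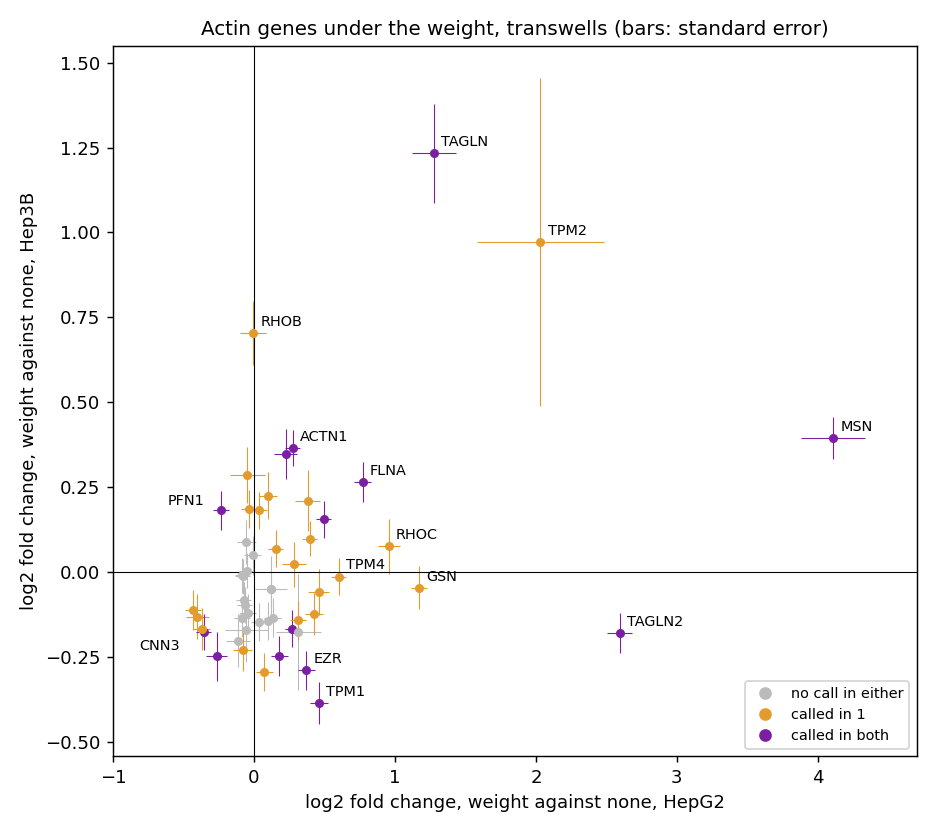
Log2 fold change under the weight in HepG2 (horizontal) and Hep3B (vertical) for 52 of the 54 genes, with standard errors as bars; purple genes were called in both lines, orange in 1 and grey in neither. MSN at 4.11 and TAGLN2 at 2.59 lie far to the right, TAGLN is high in both lines, and LIMCH1 and ACTA2 are left out since they have few or no counts in 1 line.

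Among HepG2 cells on dishes, 4% PEG went with rises across most role groups. With edgeR 16 of the 54 genes rose (29.63%) and 0 fell, against 11.6% and 10.2% of all 17283 genes tested. All 16 rose by at least 1.5-fold, as did all 1998 genes that rose in this fit (11.6%). Without MSN and LIMCH1, which passed the filter through 4% PEG alone, 14 of 52 genes rose (26.9%) and 0 fell, against 8.63% and 9.6% of the 15850 genes above the cutoff in both groups. At an unadjusted p under 0.05 the counts were 20 up and 3 down, against 3280 (19%) and 3107 (18%) of all genes, and DESeq2 found 0 falls and limma 3. With replicate number as a block in the fit, more of the 54 genes rose and some fell. That fit also called 5666 rises and 5487 falls among all genes, against 1998 and 1760 in the main fit. The median log2 change was 0.47 over the 54 genes and 0.01 over all genes, and 45 of the 54 estimates were positive; without MSN and LIMCH1 the median was 0.40. The smallest change called was 1.87-fold, for the light chain MYL12B, so many genes with no call had estimates of a size that passed on transwells. The risen genes were spread over 8 of the 9 role groups: 2 Arp2/3 subunits, 3 turnover genes, 2 cross-linkers, 2 membrane linkers, 1 tropomyosin, 2 myosin II genes, 3 adhesion and stress fibre genes and RHOC.

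LCP1, at chr13:46125920-46211871 (plastin 2, a filament bundler best known from blood cells) went from 3.61 and 3.57 CPM in isotonic medium to 54.6 and 77.7 CPM in 4% PEG, 18.4-fold (log2 4.20 ± 0.36, adjusted p = 0.00133). Per kilobase, plastin 2 took 1.1% and 1.23% of the summed LCP1 and PLS3 level in isotonic medium and 21.4% and 32.1% in 4% PEG; PLS3 had no call at log2 -0.75 ± 0.24. Of 6 blood cell markers, PTPRC had 0 counts in all 4 dish libraries and CD3E 0 in isotonic medium and 11 in 4% PEG, and their summed level, nearly all LYZ, was 4666 and 3859 CPM in isotonic medium and 566.9 and 493.8 CPM in 4% PEG. MSN had 3 and 4 counts in the isotonic libraries (0.106 and 0.188 CPM) and 3.24 and 3.2 CPM in 4% PEG, a log2 difference of 4.45 ± 0.55. Ezrin went from 71.4 and 70.6 CPM to 215 and 221 CPM (3.07-fold, adjusted p = 0.0053), with radixin at log2 0.11 ± 0.29 and no call. LIMCH1 had 0 counts in both isotonic libraries and 36 in the 4% PEG ones, at least 9.77-fold higher with a floor of 3 counts over the group.

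The depolymerising factors DSTN and CFL1 (cofilin 1) rose 3.04-fold and 2.32-fold, DSTN from 145 and 115 CPM to 444 and 348 CPM and CFL1 from 174 and 254 CPM to 419.8 and 571 CPM. The summed cofilin family level per kilobase was 104 and 102 CPM in isotonic medium and 223 and 216 CPM in 4% PEG, and CFL2 had no part in that, at log2 -0.04 ± 0.26. The capping protein CAPG rose 4.69-fold. RHOC went from 25.5 and 44.8 CPM to 121 and 212 CPM (4.74-fold, adjusted p = 0.0113), and RHOA, RHOB, ROCK1 and ROCK2 did not pass the test. Myosin light chain kinase rose 2.92-fold, MYLK going from 36.7 and 34.4 CPM to 107 and 100.4 CPM (adjusted p = 0.00778). Paxillin rose 3.09-fold and vinculin (VCL, which strengthens adhesions) 1.9-fold. FLNA rose 2.66-fold but its 4% PEG libraries were far apart, at 835 and 1672 CPM.

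TPM1, MYL12B, ARPC1B and ARPC2 rose 2.03-fold, 1.87-fold, 2.57-fold and 1.98-fold. MYL9 lay at 6.08 and 9.29 CPM and 13.5 and 29 CPM (log2 1.47 ± 0.48, adjusted p = 0.0704) and MYH9 at 552 and 713 CPM and 798 and 1277 CPM (log2 0.71 ± 0.31), without overlap and without a call. ACTB was at log2 0.27 ± 0.23, ACTG1 at -0.03 ± 0.29 and RHOA at 0.06 ± 0.23. With 1 library left out, 7 to 14 genes rose, with 7 without 4% PEG replicate 2; of the 12 rises with the smallest p, LCP1, EZR, MYLK, DSTN and RHOC kept their call without each library and ARPC1B, ARPC2, CAPG, CFL1 and PXN did not, while MSN and LIMCH1 are not counted here, LIMCH1 being filtered out without 4% PEG replicate 2. Mitochondrial transcripts made up 0.999% and 1.87% of the isotonic libraries and 5.05% and 7.34% of those in 4% PEG. The 8 summed liver markers were 92450 and 94950 CPM against 15520 and 14900 CPM. The 6 smooth muscle markers, mostly SMTN, summed to 13.65 and 22.11 CPM against 39.66 and 69.74 CPM, with LMOD1 at 0 in all 4 libraries and DES at 0 in isotonic medium. The 4 endothelial markers, with KDR at 0 in isotonic medium, summed to 11.91 and 14.88 CPM against 13.02 and 14.7 CPM. Within that sum the markers moved apart: of 3 tested 1 fell, and log2 changes ran from -1.92 to 0.94. The part of these in the result was not tested. With libraries scaled by total counts alone, the median change of all genes was 0.38, 23 of the 54 genes rose and 0 fell, against 18.7% and 6.43% of all genes.

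**Figure D3:**
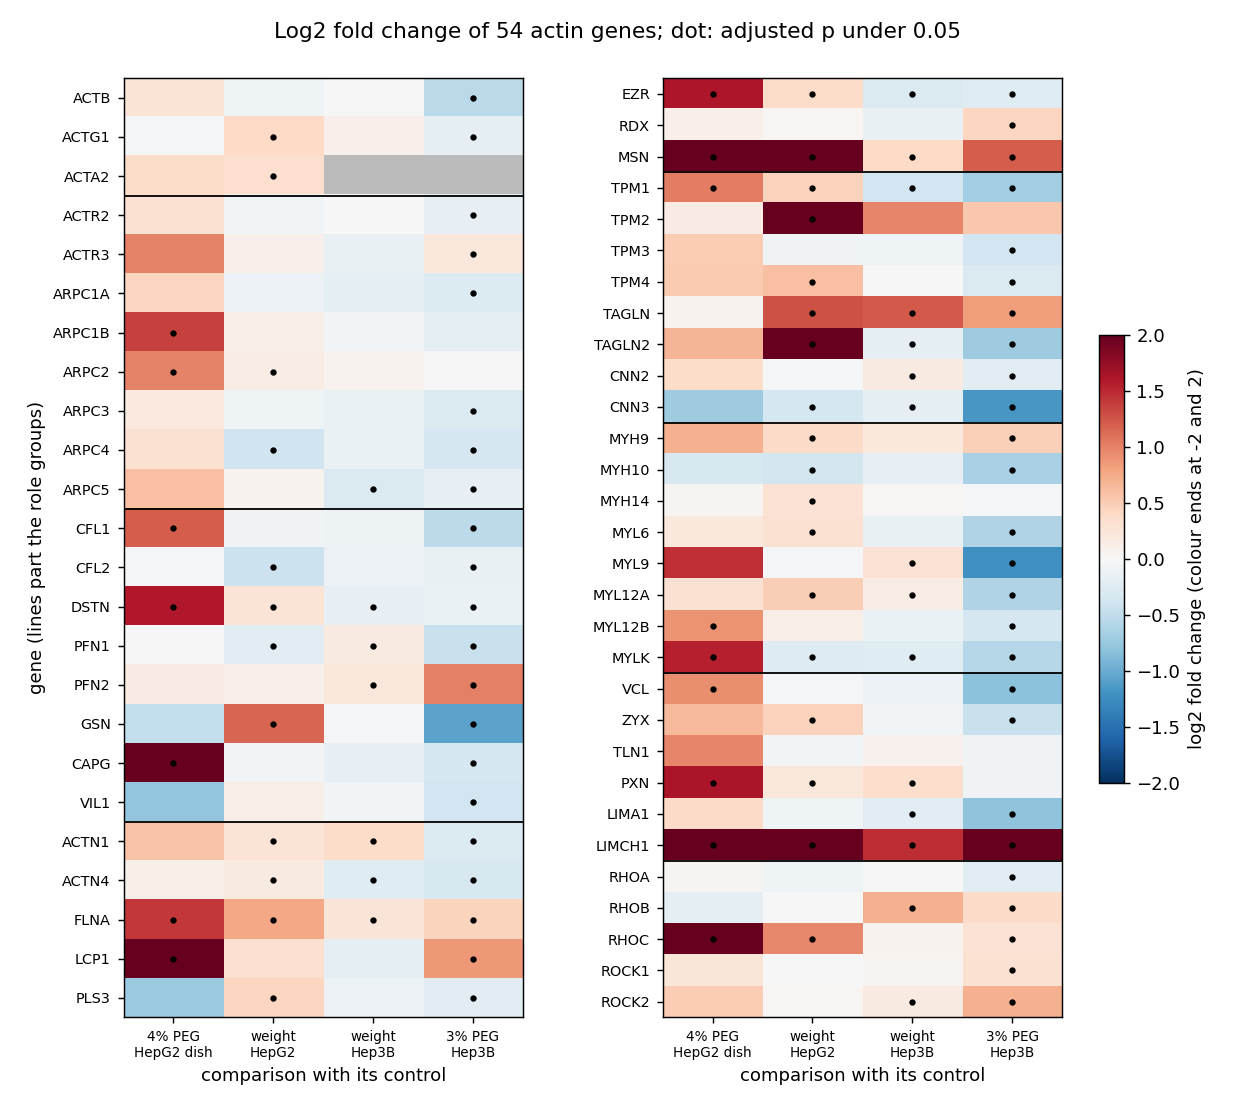
Log2 fold change (colour, ending at -2 and 2) of the 54 genes, by role group, in the 4 comparisons of a compressed group with its control; a dot marks an adjusted p under 0.05, and grey marks ACTA2 in Hep3B, which had no counts. The 4% PEG column holds 16 dots, all on rises, and the 3% PEG column 34 dots on falls and 13 on rises.

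In Hep3B, 3% PEG went with falls across the set, compared with the same uncompressed libraries as the weight. Of the 54 genes 34 fell (62.96%) and 13 rose (24.07%), against 27.6% and 25.1% of all genes tested, with 10 fallen (18.52%, against 14.5%) and 6 risen (11.11%, against 13%) by at least 1.5-fold. The median log2 change was -0.22 over the 54 genes and -0.02 over all genes. Falls took 7 of 8 turnover genes, 6 of 8 myosin II genes, 6 of 8 tropomyosin and calponin-family genes and 5 of 8 Arp2/3 subunits, whereas RHOB, RHOC, ROCK1 and ROCK2 and 2 of the 3 membrane linkers rose.

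MYL9, at chr20:36541484-36551447, the regulatory light chain of contractile stress fibres, went from 37 and 36.9 CPM to 14.9 and 16.5 CPM (2.34-fold lower, log2 -1.23 ± 0.09, adjusted p = 8.32e-13). CNN3 went from 262 and 264 CPM to 120.0 and 116 CPM (2.23-fold lower, adjusted p = 1.18e-17) and GSN from 24.6 and 23.4 CPM to 11.1 and 11.8 CPM (2.1-fold lower, adjusted p = 3e-14). In each of these the 3% PEG libraries lay below every other Hep3B library. Vinculin, EPLIN, TAGLN2 and TPM1 fell by 1.63-fold to 1.76-fold, VCL from 119 and 131 CPM to 72.3 and 69.6 CPM and LIMA1 from 97.4 and 96.1 CPM to 55 and 55.6 CPM. The light chains MYL12A and MYL6 and the heavy chain MYH10 fell by 1.51-fold, 1.52-fold and 1.57-fold. β-actin fell too, ACTB from 4208 and 4436 CPM to 2839 and 3087 CPM (1.46-fold lower), with CFL1 1.44-fold, ACTG1 1.14-fold and RHOA 1.16-fold lower; the fall of ACTG1 lost its call without 3% PEG replicate 1 (adjusted p = 0.1).

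The rises were led by LIMCH1, from 5.55 and 5.65 CPM to 37.3 and 37 CPM (6.62-fold, log2 2.73 ± 0.11, adjusted p = 3.48e-19). Moesin reached 129 and 128 CPM (2.3-fold, adjusted p = 9.59e-17), the highest level of any group, and radixin rose 1.35-fold, so that per kilobase moesin made up 19.6% and 19.5% of the linkers against 9.52% and 9.2% without PEG. PFN2, which binds actin monomers, went from 38.9 and 40.2 CPM to 80.3 and 79.1 CPM (2.02-fold) while PFN1 fell 1.36-fold. ROCK2 rose 1.64-fold, from 128 and 138 CPM to 219.8 and 218 CPM, ROCK1 1.23-fold, RHOB 1.3-fold and RHOC 1.22-fold. LCP1 went from 4.19 and 3.51 CPM to 6.93 and 7.13 CPM (1.83-fold), TAGLN rose 1.78-fold, FLNA 1.36-fold and ACTR3 1.17-fold. MYH9 rose 1.39-fold and, with MYH10 down, its share of the heavy chains per kilobase was 21% and 23.1%, against 11.8% and 12.3% without PEG. Summed liver markers were 33380 and 33300 CPM without PEG and 21220 and 20470 CPM with it, and of the 8 markers 1 rose and 6 fell. Blood cell markers, with CD3E at 0 in all 4 libraries, were 16.77 and 16.91 CPM against 4.793 and 5.049 CPM, smooth muscle markers 56.87 and 56.21 CPM against 44.23 and 52.01 CPM, and endothelial markers, with CDH5 and KDR at 0 in all 4, 0.6638 and 0.6666 CPM against 0.6847 and 0.4944 CPM. The part of these in the result was not tested.

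**Figure D4:**
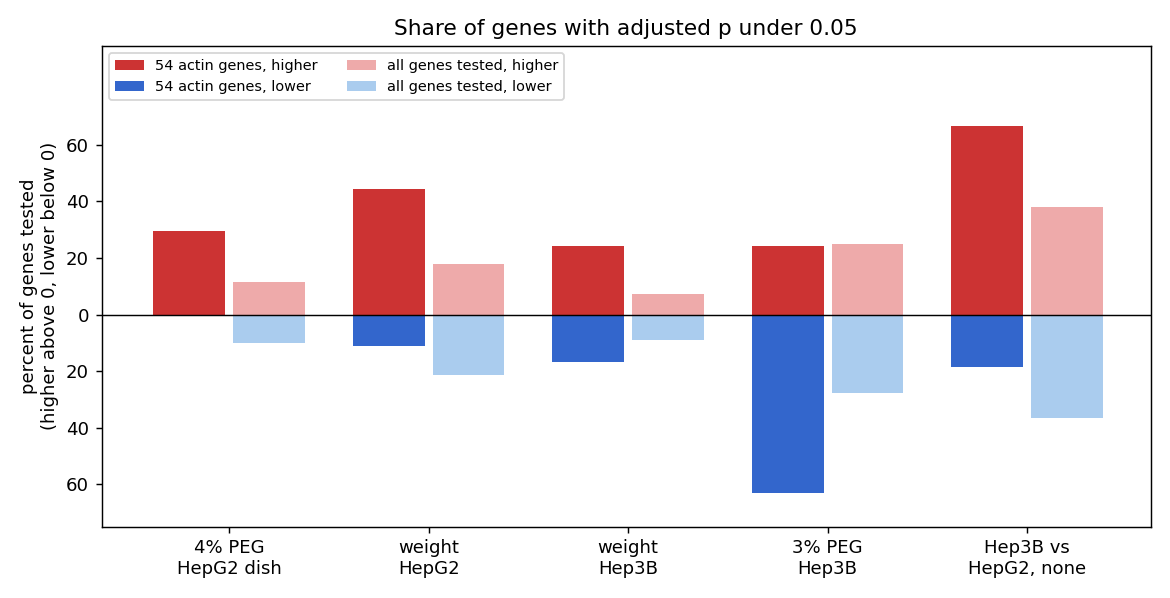
Percent of genes risen (above 0) or fallen (below 0) at an adjusted p under 0.05 among the 54 actin genes (dark bars) and among all genes tested (pale bars) in 5 comparisons. The dark bar of falls in 3% PEG reaches 62.96% against 27.6%, and 4% PEG has no dark bar below 0.

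The PEG comparisons were then set against each other. Of the 16 genes that rose in 4% PEG in HepG2, 8 fell in 3% PEG in Hep3B (CFL1, DSTN, CAPG, EZR, TPM1, MYL12B, MYLK and VCL), 5 rose there (FLNA, LCP1, MSN, LIMCH1 and RHOC) and 3 did not pass the test (ARPC1B, ARPC2 and PXN), or 50%, 31.2% and 18.8%. Of all 1670 genes risen in 4% PEG and tested in both fits, 13.8% fell, 49.8% rose and 36.3% had no call in 3% PEG. MSN and LIMCH1, counted among the 16 and the 5, passed the dish filter through 4% PEG alone, so their rises there are descriptions. The difference of the changes, 4% PEG in HepG2 minus 3% PEG in Hep3B, was fitted over all 14 libraries with limma, with 1 variance factor per surface. It was higher for 26 genes (48.1%) and lower for PFN2 alone, a call lost without isotonic replicate 2 or either 4% PEG library, against 7.25% and 8.24% of all 19158 genes tested, with a median of 0.78 over the 54 genes and 0.01 over all; MSN, LIMCH1 and ACTA2, under the filter's cutoff in some of these groups, are not among the 27. MYLK had the clearest difference at 2.11 ± 0.23 (limma, adjusted p = 7.7e-06), followed by EZR at 1.86 ± 0.21, DSTN at 1.73 ± 0.19, CFL1 at 1.76 ± 0.21 and VCL at 1.74 ± 0.21. MYL9 differed by 2.64 ± 0.48 (adjusted p = 0.00103) and ACTB by 0.81 ± 0.17 (adjusted p = 0.00301), ACTG1 was not shown to differ at 0.14 ± 0.20, nor were MYH9 at 0.21 ± 0.27 and RHOA at 0.27 ± 0.16. Line, surface and PEG dose all change together in this comparison and cannot be told apart.

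**Figure D5:**
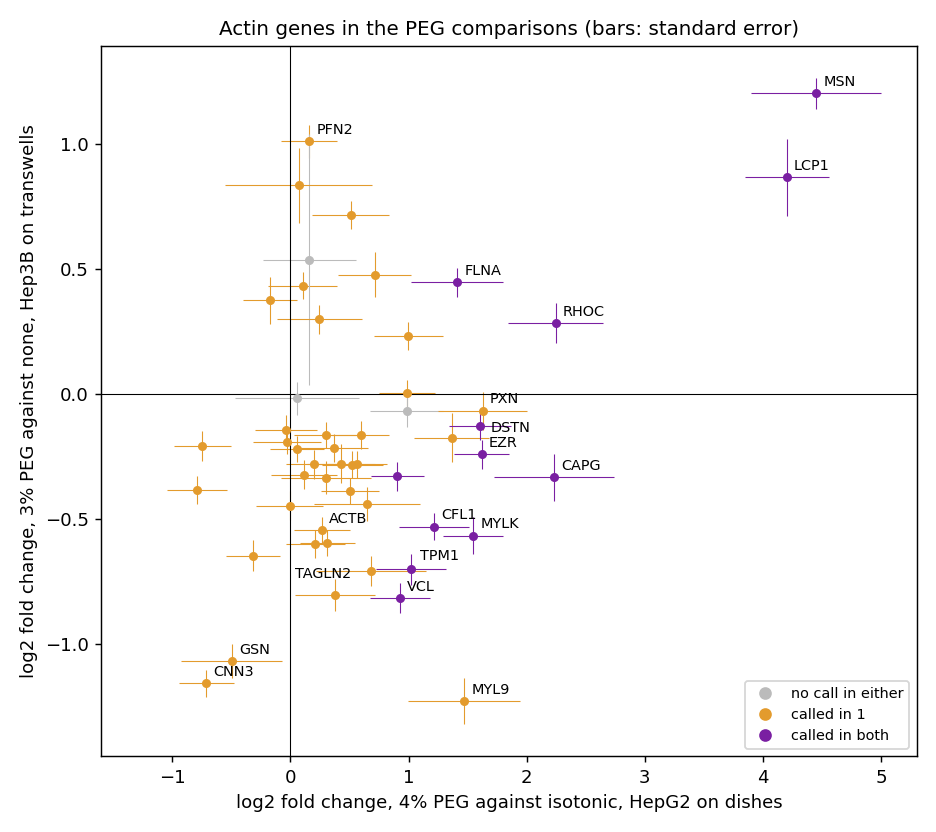
Log2 fold change in 4% PEG on HepG2 dishes (horizontal) and in 3% PEG on Hep3B transwells (vertical) for 52 of the 54 genes, with standard errors as bars; purple genes were called in both, orange in 1 and grey in neither. MSN and LCP1 lie high on both axes, MYL9 lies at 1.47 and -1.23, and LIMCH1 and ACTA2 are left out for their counts of 0.

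Within Hep3B the weight and 3% PEG were also compared directly, as a contrast within the fit of the 10 transwell libraries, which share 1 estimate of the spread. Under the weight 30 genes were higher than in 3% PEG (55.56%) and 11 lower (20.37%), against 26.7% and 25.4% of all genes tested, and 7 and 4 by at least 1.5-fold (12.96% and 7.407%, against 15.3% and 12.3%). The tropomyosin and calponin-family genes were higher in 7 of 8 cases and the myosin II genes in 6 of 8. CNN3 was 1.97-fold higher (log2 0.98 ± 0.05, adjusted p = 6.29e-16), MYL9 2.86-fold, with 48.2 and 41.8 CPM under the weight and 14.9 and 16.5 CPM in 3% PEG, and GSN 2.03-fold. MSN was 1.75-fold lower under the weight, LIMCH1 2.37-fold, and MYH9 1.2-fold (adjusted p = 0.0248; 0.283, 0.0612 and 0.197 without weighted replicate 1, weighted replicate 2 and 3% PEG replicate 2). ACTB, ACTG1 and RHOA were 1.45-fold, 1.22-fold and 1.15-fold higher under the weight. Scaling by total counts alone gave 23 higher and 14 lower, against 22.5% and 30.1% of all genes.

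Genes around this machinery were also followed, with 24 nucleation, capping and elongation genes and the 4 genes SRF, MRTFA, MRTFB and SCAI, the last an inhibitor of MRTF, as lists of names. Single genes come from 2 further lists of cytoskeletal regulators, whose counts are not reported here. Of the nucleation, capping and elongation genes 7 rose and 6 fell under the weight in HepG2 (29.2% and 25%, against 17.9% and 21.4% of all genes), and 2 and 3 in Hep3B (8.33% and 12.5%, against 7.29% and 8.85%). In 4% PEG 5 rose and 2 fell (20.8% and 8.33%, against 11.6% and 10.2%), and in 3% PEG 9 and 12 (37.5% and 50%, against 25.1% and 27.6%). Both counts under the weight in Hep3B and the falls in 4% PEG were near the share of all genes. CIT (citron kinase) went in 4% PEG from 32.8 and 26.5 CPM to 0.762 and 0.442 CPM (log2 -5.61 ± 0.47), ANLN (anillin) from 176 and 111 CPM to 7.08 and 3.91 CPM (-4.70 ± 0.44) and DIAPH3, a formin, from 33.1 and 20.8 CPM to 1.08 and 0.408 CPM (-5.17 ± 0.59). In 3% PEG the Hep3B levels of ANLN and CIT were 319.7 and 322 CPM and 32.9 and 34.3 CPM against 351 and 362 CPM and 39.4 and 41.8 CPM without it. SVIL (supervillin, a membrane-bound actin and myosin II binder) rose in 4% PEG from 26.8 and 24.5 CPM to 151 and 146 CPM (log2 2.53 ± 0.25).

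RND3, an atypical GTPase that inhibits ROCK1, was low in HepG2 and high in Hep3B. It lay at 0.0446 and 0.124 CPM in uncompressed HepG2, 2.49 and 3.18 CPM under the weight (log2 4.96 ± 0.39), and 0.0707 and 0.141 CPM in isotonic medium against 4.16 and 2.55 CPM in 4% PEG (log2 4.98 ± 0.64); the uncompressed and isotonic libraries were under the filter's cutoff, so these are descriptions. In Hep3B it stood at 76.6 and 81.4 CPM without compression, 70.4 and 67 CPM under the weight and 65.4 and 56.7 CPM in 3% PEG. FSCN1 (fascin, a bundler of protrusions) fell in 3% PEG from 145 and 142 CPM to 27.2 and 31.1 CPM (log2 -2.30 ± 0.07) and ARHGAP18, which switches RhoA off, from 160.4 and 163 CPM to 35.5 and 36.2 CPM (log2 -2.17 ± 0.07). ARHGEF2, a RhoA activator released from microtubules, rose there from 87.1 and 86.9 CPM to 219.6 and 228 CPM (log2 1.36 ± 0.06). In HepG2 the weight lowered COTL1 (coactosin-like 1, an actin binder) from 44.9 and 51.4 CPM to 14.3 and 14.2 CPM (log2 -1.75 ± 0.09) and raised CAP2 and ENAH by 2.12-fold and 1.76-fold. Of the SRF group, MRTFA rose under the weight in HepG2 and in 3% PEG in Hep3B (log2 0.42 ± 0.09 and 0.42 ± 0.08), and SRF fell under the weight in HepG2 (-0.34 ± 0.07). In 4% PEG SRF, MRTFA, MRTFB and SCAI had no call, at log2 -0.22 ± 0.30, 0.59 ± 0.42, -0.31 ± 0.26 and -0.85 ± 0.37, and under the weight in Hep3B their changes lay between -0.04 and 0.06 with no call.

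Some values share reads with close copies. Coding sequences of ACTB and ACTG1 are 91.3% identical and those of MYL12A and MYL12B 95.7%, so a split of reads between them is uncertain. VIL1 (villin, a microvillus protein) shares 44% of its exon bases with USP37 on the opposite strand, and ARPC1A and ARPC1B share 58.4% and 32.4% with a read-through gene on the same strand. ARPC4 shares 28.3% with genes on both strands, and TPM1 and CFL1 share 21.4% and 19% with genes on the opposite strand. The counts of these genes are uncertain to that extent. VIL1 fell in 3% PEG, from 546 and 544 CPM to 416 and 419 CPM, and had no call in 4% PEG at 292 and 347 CPM in isotonic medium and 159 and 209.7 CPM with PEG.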

How the data were processed

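RNA from HepG2 and Hep3B cells was sequenced in 14 libraries, and the authors deposited 1 table of raw gene counts. Per the submitters' processing notes, STAR and DESeq2 were among the tools and GRCh38 and hg38 the builds named; the sources used here name neither the counting tool nor its use of strand. Rows without a gene name held 0.229% to 0.308% of counts and were kept in the scaling and the tests. Counts were normalized by TMM over all 14 libraries and tested with edgeR 4.0.16 (R 4.3.3, robust quasi-likelihood), with 1 fit for the 4 dish libraries (17283 genes, 2 residual degrees of freedom) and 1 for the 10 transwell libraries (18082 genes, 5 residual degrees of freedom), after a filter with a minimum count of 10. The contrast of the PEG effects was added after the data were seen and fitted with limma 3.58.1. DESeq2 1.42.0, other scalings, filters and fits, and leaving out each library were tried as alternatives, and the edgeR script was tested on simulated data.

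The 54 genes and the other lists were chosen with earlier results of these data known. Genes named with values by rule were, per comparison and direction, up to 12 with the smallest p among those past the threshold whose groups did not overlap (up to 5 for the weight against 3% PEG and for the difference in the weight's effect), and always ACTB, ACTG1, MYH9, MYL9 and RHOA. From each other list, up to 3 genes with the smallest p could be named; some results are not reported here. Further members were named after their values were seen. Counts without genes under the filter's cutoff in 1 compared group were also added after the data were seen. Replicate numbers were not taken as pairs, since 8 of 10 transwell pairs had a correlation of deviations over 0.1 and the others did not. The dishes gave a single pair, with a correlation of 0.86, which the main fit does not model. Intervals and floors cover counting error only.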

Additional observations from a re-analysis of the deposited data

Results flagged for a closer look

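The effect of the weight differed between the lines by a test of the difference itself (edgeR's quasi-likelihood test, Benjamini-Hochberg adjustment): 18 of the 54 genes had a lower effect in Hep3B than in HepG2 and 4 a higher one. The clearest differences on the log2 scale, Hep3B minus HepG2, were TAGLN2 at -2.77, MSN at -3.72, GSN at -1.22, TPM1 at -0.85 and TPM4 at -0.61. MSN was under the filter's cutoff in uncompressed HepG2, so its difference is a description.

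The effect of PEG also differed by such a test (limma): 26 genes had a higher effect in 4% PEG on HepG2 dishes than in 3% PEG on Hep3B transwells and 1, PFN2, a lower one. The clearest differences on the log2 scale, HepG2 minus Hep3B, were MYLK at 2.11, EZR at 1.86, DSTN at 1.73, CFL1 at 1.76 and VCL at 1.74. Line, surface and PEG dose cannot be told apart here.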

How the results depend on the processing

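Of 204 named gene results, 3 turned their direction under an alternative, namely CNN3, MYLK and RHOA between the lines with total counts as the scale (log2 0.11, 0.17 and 0.25), and 84 lost their call in at least 1 alternative. Fitting all 14 libraries together gave 27 rises and 4 falls in 4% PEG, 10 and 1 under the weight in HepG2, 2 and 0 under the weight in Hep3B, 6 and 14 in 3% PEG, 10 higher and 5 lower for the weight against 3% PEG, 0 and 3 for the difference in the weight's effect, and 3 lower for the PEG difference. In 4% PEG, 1 gene fell with no low-count filter and 3 fell with limma. Under the weight in Hep3B, DESeq2 found 5 falls and limma 6 rises. For the PEG difference, 37 genes were higher with total counts as the scale. With a replicate block, fitted although the numbers were not taken as pairs, 35 genes rose and 5 fell in 4% PEG (the single dish pair correlated at 0.86), and 3 were lower for the PEG difference; the other counts stayed within 1.5 times.

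With 1 library left out, an arm of 1 library is assumed to vary like the others. Rises then ranged from 7 to 14 and falls stayed at 0 in 4% PEG; 18 to 22 rose and 4 to 6 fell under the weight in HepG2; 5 to 11 and 3 to 12 under the weight in Hep3B; 13 to 13 and 29 to 31 in 3% PEG; 26 to 30 and 8 to 10 for the weight against 3% PEG; 35 and 9 to 10 between the lines; 3 to 6 and 16 to 20 for the difference in the weight's effect; and 19 to 27 and 0 to 1 for the PEG difference, with 0 lower without isotonic replicate 2, 4% PEG replicate 1 or 4% PEG replicate 2. The causes were not tested. The simulated data held far fewer changed genes than were called in these data, and their libraries were drawn independently. There the dish fit recovered 6.45% of 2-fold changes and 58.7% of 4-fold ones. The transwell fit, also with 2 libraries per group, recovered 71.7% and 85.7%. Changes on dishes, large ones included, could be missed, but because of those settings the simulation does not give their share in these data.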
